A study of Mus musculus with 42 samples.

Results

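Crypt epithelium of the proximal colon was compared between mice homozygous for the P209T mutation of Mtg16 (Mtg16 T/T) and their wild-type littermates (WT). The comparison took in every library that the labels place in the proximal colon at baseline in the P209T colony. These were WT replicates 1 and 2 and T/T replicates 1 and 2, which made 4 of the 42 samples of the series. The series was made to learn how the corepressor MTG16, the product of Cbfa2t3, shapes the epithelium of the mouse colon, and it holds knockout and mutant mice, both ends of the colon, injury and tumors. All 4 mice were of strain C57/BL6, at least 8 weeks old and untreated, and came from crosses of heterozygous parents within the P209T colony. The mutation was introduced with CRISPR and is present in every cell of the body, not in the epithelium alone. The segment taken was the first 5 cm after the cecum, and its crypts were released with a chelator. RNA was sequenced from the whole isolate, which mixes stem, absorptive, goblet, enteroendocrine and tuft cells.

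MTG16 does not bind DNA itself but joins transcription factors to histone deacetylases and other corepressors. Among its partners are the E proteins E2A (Tcf3) and HEB (Tcf12), which bind CANNTG sites, called E boxes, together with lineage factors such as ATOH1 and NEUROG3. In the crypt, ATOH1 opens the secretory fate, and NEUROG3 then commits some of those cells to hormone production, while others become mucus-producing goblet cells. The P209T substitution replaces a proline by a threonine and weakens binding of MTG16 to E2A and HEB, and so differs from loss of the whole protein.

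Reads assigned to genes came to 41755780 to 47082317 in the 3 libraries for which they could be recovered, and normalized totals, which the scaling draws together, to 43757881 to 45211441 counts in all 4. Pairwise correlations of log2(normalized count + 1) over the genes tested lay between 0.974 and 0.987. WT 2 and T/T 2 stood apart by genes above the other libraries, and T/T 1 by genes below them. WT 2 had 35 genes at least 4-fold above each of the other 3 libraries, mainly ileal defensins. T/T 2 had 37 such genes, among them smooth muscle genes and genes known from kidney, whereas WT 1 and T/T 1 had 1 each. Genes at least 4-fold below each of the other libraries numbered 8 in WT 1, 6 in WT 2, 19 in T/T 1 and 5 in T/T 2. Summed markers of colon epithelium were 1164360 to 1352710 normalized counts in all 4. Xist was at 8.05 counts or less and Y-linked genes were present in each, so the 4 mice were male by expression. Defa24, an alpha-defensin of ileal Paneth cells, was at 0 in WT 1, 487 in WT 2, 0 in T/T 1 and 0 in T/T 2, and such genes are not named below for their differences, although they stayed in the fit. Tagln, a smooth muscle gene, was at 7.04, 7.44, 10.6 and 487 in the same order. The plot of transcripts high or low in 1 library shows these genes beside circadian and posterior Hox genes that also set libraries apart.

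**Figure D1:**
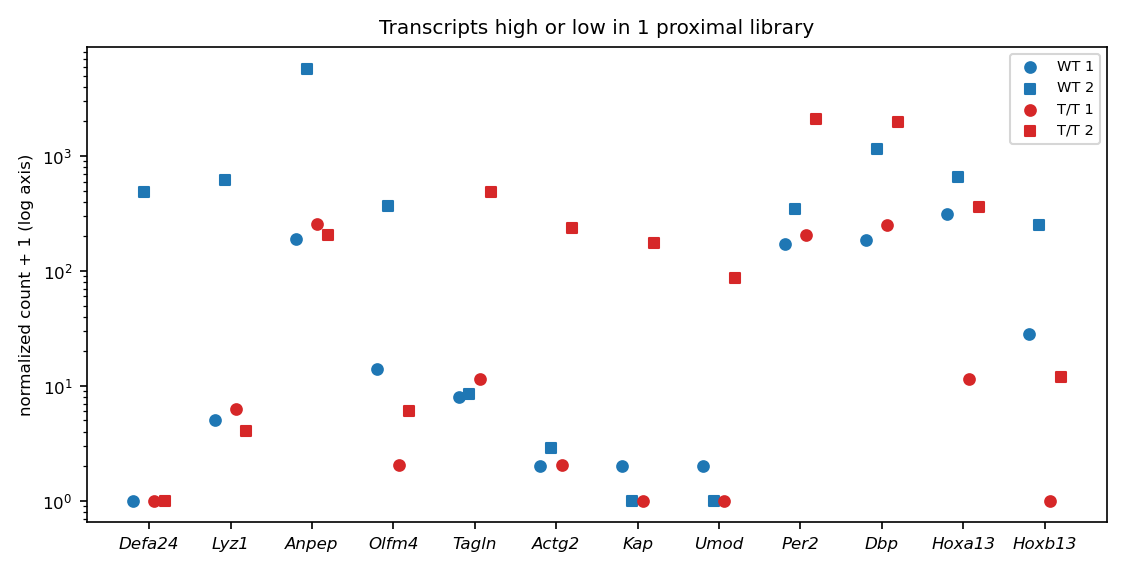
Normalized count + 1 on a log axis of 12 transcripts in each of the 4 libraries (blue WT, red T/T, circles replicate 1, squares replicate 2). Defa24, Lyz1, Anpep and Olfm4 were high in WT 2, with Defa24 at 487, while Tagln, Actg2, Kap and Umod were high in T/T 2, with Tagln at 487.

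Cbfa2t3 itself (chr8:122625141-122699109, minus strand, GRCm38) was read in every library. The mutated codon lies at chr8:122642973-122642975, in exon 5 of 12 of the transcript Cbfa2t3-203, within the coding sequence. The reference sequence around it, which shows where the substitution falls, is given in coding direction with the proline codon in capitals. It is the spliced transcript of the GENCODE vM21 gene model (GRCm38). After the codon it crosses into the next exon, so it is not a continuous stretch of the genome.
Cbfa2t3, site of P209T: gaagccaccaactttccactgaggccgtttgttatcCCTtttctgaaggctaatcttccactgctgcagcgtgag
Cbfa2t3 was at 2049 normalized counts in WT 1, 2034 in WT 2, 2529 in T/T 1 and 2988 in T/T 2. Both T/T libraries lay above both WT libraries, by 0.43 on the log2 scale (SE 0.11), but this did not pass the threshold over all genes (limma, adjusted p = 0.232). Permuting the libraries in every way (exact test, two-sided) gave p = 0.333, the smallest that 2 against 2 libraries allow. A point mutation need not alter the level of its transcript, so this level does not check the genotype labels. The E proteins and their Id inhibitors had no called member among 7 tested. Tcf3 was at 1783 and 2003 in WT and at 1844 and 1883 in T/T, and Tcf12 was at 3197 and 3147 in WT and at 3209 and 3279.5 in T/T. Id4 alone passed an unadjusted p of 0.05, with 311 and 197 in WT and 371 and 426 in T/T (log2 difference 0.68, SE 0.24, adjusted p = 0.359), and its difference was 0.36 without WT 2. Among 15 genes of the MTG family and its corepressor partners none was called, and the median log2 difference was 0.05, and 0.10 without WT 1 and 0.08 without WT 2.

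Across the transcriptome the groups differed at few genes once all were adjusted for. Of 13767 genes that averaged 10 or more normalized counts, 32 (0.232%) passed an adjusted p of 0.05, 19 of them higher in T/T (0.138%) and 13 lower (0.0944%). The count was 2 without the filter on low genes and 0 with limma run without its trend (1404 genes at an unadjusted p under 0.05). It also depended on single libraries. Without WT 1 no gene was called and 1036 had an unadjusted p under 0.05. Without WT 2 there were 7 calls, 4 of them among the 32, and with T/T 1 or T/T 2 left out there were 27 calls each, 12 and 15 of them among the 32. No called gene had the opposite direction under any of these settings. In whole-tissue RNA, fewer cells of a type and less RNA per cell cannot be told apart, and with 2 littermate-matched samples a group the p-values measure only the spread between these libraries.

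**Figure D2:**
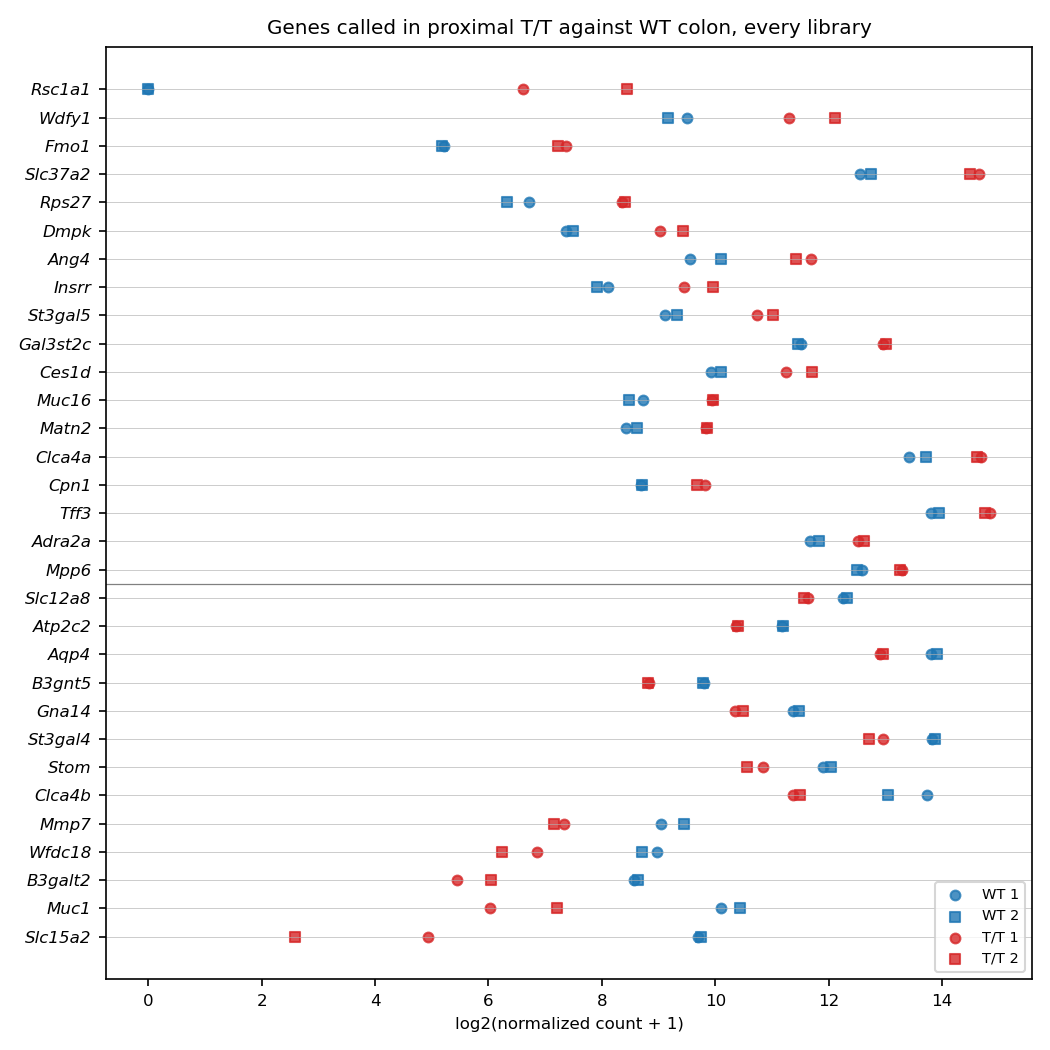
Level of 31 of the 32 called genes in every library as log2(normalized count + 1), with genes higher in T/T above the line and genes lower in T/T below it (blue WT, red T/T, circles replicate 1, squares replicate 2). Slc37a2 and Gal3st2c have the smallest adjusted p of all, 0.00662, and in each gene drawn the T/T libraries lie on one side of both WT libraries. Among all genes tested, 45.5% have groups that do not overlap.

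Genes for the sugars carried by mucins and glycolipids, and mucins themselves, stood on both sides of the comparison. Gal3st2c (chr1:93990509-94017147), a galactose 3-O-sulfotransferase, was at 2910.0 and 2823 in WT and at 7912 and 8291 in T/T. These levels differed by 1.5 on the log2 scale (SE 0.08, adjusted p = 0.00662), and the gene was called in 3 of the 4 comparisons that left out a library. Gal3st2c has close paralogs among which reads may be split, so its own level is uncertain. St3gal5 (chr6:72097592-72154571), which makes the ganglioside GM3, was at 554 and 643 in WT and at 1711 and 2071 in T/T (log2 difference 1.66, SE 0.14, adjusted p = 0.038). Muc16 (chr9:18495455-18674530), a membrane-bound mucin, was at 421 and 355 in WT and at 979.7 and 997 in T/T (1.35, SE 0.13, adjusted p = 0.038).

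The glycosylation genes that were lower in T/T included a galactosyltransferase at a small fraction of its WT level. B3galt2 (chr1:143640664-143654614) was at 378 and 395 in WT but at 42.3 and 65.4 in T/T (log2 difference -2.85, SE 0.26, adjusted p = 0.038). St3gal4 (chr9:35046576-35119268), a sialyltransferase, was at 14475 and 15008 in WT and at 7913 and 6681 in T/T (-1.02, SE 0.10, adjusted p = 0.038). B3gnt5 (chr16:19760208-19772753), which starts lacto-series glycolipids, was at 891 and 883 in WT and at 452 and 449 in T/T (-0.98, SE 0.11, adjusted p = 0.0487). The membrane mucin Muc1 (chr3:89229057-89233381) was at 1101 and 1392 in WT against 64.5 and 147 in T/T (-3.65, SE 0.37, adjusted p = 0.038). The groups overlapped in none of these, which the rule for naming called genes required, and they did not overlap in 45.5% of all genes tested. Exons of St3gal4 share 14.1% of their length with a gene on the opposite strand, and those of B3galt2 7.3%, and the library kit does not mark strand.

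Several called genes encode transporters or channels. Slc37a2 (chr9:37227585-37255738), a sugar-phosphate exchanger and one of the absorptive colonocyte genes listed, was at 5981 and 6907 in WT and at 25771 and 22927 in T/T. Its means were 6444 ± 655 and 24349 ± 2011 (SD, n = 2 each), a log2 difference of 1.92 (SE 0.11, adjusted p = 0.00662 with limma). Slc15a2 (chr16:36750177-36784962), the high-affinity peptide transporter PEPT2, had the largest reduction of the 32, from 825 and 859 in WT to 29.6 and 5.03 in T/T (-5.95, SE 0.69, adjusted p = 0.0466). The groups lay far apart, and the 2 T/T libraries also differed from each other in this gene. Aqp4, a water channel of surface colonocytes, was at 14243 and 15407 in WT and at 7622 and 7997 in T/T (-0.92, SE 0.08, adjusted p = 0.038). The neighbouring paralogs Clca4a (chr3:144952480-144975045) and Clca4b (chr3:144910921-144932529), regulators of chloride channels, went opposite ways. Clca4a was at 10964 and 13451 in WT and at 26322 and 24940.4 in T/T (1.08, SE 0.11, adjusted p = 0.0411). Clca4b was at 13562 and 8499 in WT and at 2657 and 2877 in T/T (-1.96, SE 0.21, adjusted p = 0.0411). Reads of such similar genes can be split between them, so both values are uncertain. Slc12a8, Atp2c2, a Golgi calcium and manganese pump, and the membrane protein Stom were lower too, with log2 differences of -0.69, -0.79 and -1.27. Slc12a8 and Atp2c2 belong to the goblet set of the study.

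The promoters of 3 called genes and of Neurog3 are shown because MTG16 is known to act on E-box sites. They are the 300 bases from 250 before to 50 after the RefSeq start in GRCm38.p6, in the direction of the gene, with each CANNTG in capitals.
Gal3st2c promoter, chr1:93990255-93990554, plus strand: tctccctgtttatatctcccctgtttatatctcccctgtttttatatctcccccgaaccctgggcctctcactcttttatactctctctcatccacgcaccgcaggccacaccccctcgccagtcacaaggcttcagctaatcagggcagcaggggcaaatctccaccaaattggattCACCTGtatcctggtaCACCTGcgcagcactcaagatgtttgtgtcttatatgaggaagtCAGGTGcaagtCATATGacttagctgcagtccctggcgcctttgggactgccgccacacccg
Slc15a2 promoter, chr16:36784913-36785212, minus strand: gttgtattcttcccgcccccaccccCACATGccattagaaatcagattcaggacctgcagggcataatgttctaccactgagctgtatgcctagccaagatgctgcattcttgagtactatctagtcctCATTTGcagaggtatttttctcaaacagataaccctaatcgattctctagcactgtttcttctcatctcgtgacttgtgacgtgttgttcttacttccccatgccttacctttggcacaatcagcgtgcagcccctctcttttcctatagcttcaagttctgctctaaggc
Slc37a2 promoter, chr9:37255689-37255988, minus strand: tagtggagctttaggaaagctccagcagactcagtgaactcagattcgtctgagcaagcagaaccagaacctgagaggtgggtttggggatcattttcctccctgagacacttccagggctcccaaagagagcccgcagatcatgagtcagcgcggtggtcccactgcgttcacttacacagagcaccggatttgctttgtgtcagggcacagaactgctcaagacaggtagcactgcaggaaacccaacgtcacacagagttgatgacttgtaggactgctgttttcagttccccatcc
Neurog3 promoter, chr10:62132840-62133139, plus strand: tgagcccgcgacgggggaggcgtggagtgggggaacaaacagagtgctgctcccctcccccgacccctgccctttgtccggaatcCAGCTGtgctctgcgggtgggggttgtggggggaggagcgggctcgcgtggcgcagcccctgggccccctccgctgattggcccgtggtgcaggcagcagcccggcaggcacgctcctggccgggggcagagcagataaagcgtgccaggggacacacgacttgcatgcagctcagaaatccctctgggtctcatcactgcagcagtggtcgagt
CANNTG reads as the same pattern on both strands and covers both CAGCTG and CAGGTG with its reverse complement CACCTG. Gal3st2c held 4 such matches, Slc15a2 2, Neurog3 1 and Slc37a2 0. A promoter of this length was at hand for 11 of the 19 genes called higher and 11 of the 13 called lower, and 9 of each (81.8%) held CANNTG. Of all genes tested that had one, 6963 of 10891 did (63.9%), and of the 22 enteroendocrine transcription factors tested, 10 of the 17 with a promoter (58.8%). CAGGTG or CACCTG was found in 4 of the 11 higher, 5 of the 11 lower and 18.3% of all genes tested with a promoter. CAGCTG was found in 1 and 3 of them and in 14.7% of all. A match is a run of letters in this window and no record of binding.

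Some called genes encode secreted proteins. Tff3 (chr17:31125306-31129646), the trefoil peptide that goblet cells secrete with mucus, was at 14309 and 15785 in WT and at 29382 and 27608 in T/T (log2 difference 0.92, SE 0.09, adjusted p = 0.038). Ang4 (chr14:51763878-51773590), an antimicrobial ribonuclease, was at 749.9 and 1102 in WT and at 3298 and 2757 in T/T (1.73, SE 0.19, adjusted p = 0.0436). Mmp7 (chr9:7692090-7699585), the protease that activates alpha-defensins in Paneth cells, is a member of the Paneth marker list and is reported apart for that reason. It was at 529 and 701 in WT and at 161 and 141 in T/T (-2.01, SE 0.19, adjusted p = 0.038). Of the 23 Paneth markers in the table, 18 were at 0 in WT 1, 0 in WT 2, 18 in T/T 1 and 17 in T/T 2. Their sum was 15620 and 16420 in WT and 7847 and 4942 in T/T, most of it from Nupr1, at 14749 and 12431 in WT and 7358.5 and 4559 in T/T. Most of those that reached the count minimum, the alpha-defensins among them, did so through WT 2 alone, so no count or median over them is given. Their part in the Mmp7 value was not tested. Wfdc18, a small secreted whey-acidic protein, was at 504 and 418 in WT and at 115 and 74.4 in T/T (-2.30, SE 0.25, adjusted p = 0.0436).

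Receptors, kinases and other enzymes were also among the genes that were higher. Insrr (chr3:87796951-87816101), the insulin receptor-related receptor, was at 274 and 239 in WT and at 700.4 and 989 in T/T (1.70, SE 0.20, adjusted p = 0.0466). Dmpk (chr7:19083849-19093821), a serine-threonine kinase, was at 165 and 179 in WT and at 522 and 687 in T/T (1.79, SE 0.18, adjusted p = 0.0392). Both genes kept their T/T libraries at over 2 times the higher WT library. The matrix protein gene Matn2, the polarity scaffold Mpp6, the alpha-2A adrenergic receptor Adra2a and the carboxypeptidase Cpn1 were higher by 1.31, 0.74, 0.82 and 1.05 on the log2 scale. The endosomal protein gene Wdfy1 was at 724 and 575 in WT and at 2518 and 4433 in T/T (2.37, SE 0.26, adjusted p = 0.0436), and the flavin monooxygenase Fmo1 was at 36.2 and 35.3 in WT and at 164 and 148 in T/T (2.09, SE 0.25, adjusted p = 0.0498). Gna14, a G protein subunit, was lower, with a log2 difference of -1.01.

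The values of 2 calls need their gene models beside them. Rsc1a1 (chr4:141683851-141685599) was at 0 in both WT libraries and at 96.3 and 345 in T/T. Against a floor of 3 counts per library it was at least 73.6-fold higher (adjusted p = 0.038). All of its exon length lies within Ddi2 on the same strand, so reads of the 2 genes may be exchanged, and WT mice of the other colony held it at 111.6 and 368 in their own table. Rps27, a ribosomal protein gene with near-identical copies, was at 104 and 79.0 in WT and at 328 and 339 in T/T (1.87, SE 0.21, adjusted p = 0.0436), and its reads are likewise uncertain.

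The called genes were next placed along the colon, using WT libraries that the comparison did not contain. In the other colony of the series, proximal and distal crypts of WT mice were sequenced under 1 request number, with 2 libraries of each segment. Each of those libraries had Xist at 16360 counts or more, so they came from female mice by expression, unlike the libraries compared here. The proximal ones are also the WT controls of the comparison with mice lacking MTG16, given below. Of the 19 genes higher in T/T, 10 (52.6%) were at least 2-fold higher in those proximal than in those distal libraries, with no overlap, beside 9.5% of all 13763 genes with a value. Of the 13 genes lower in T/T, 7 (53.8%) were at least 2-fold higher in the distal libraries, beside 5.23% of all genes. Muc16 was at 663 and 440.1 in those proximal WT libraries and at 5.04 and 3.05 in the distal ones. B3gnt5 was at 544 and 508 in the proximal and at 6813 and 6772 in the distal libraries. At the same 2-fold limit Fmo1 and Dmpk were higher in T/T and in distal WT crypts, and Mmp7 was lower in T/T and higher in proximal WT crypts. The other 7 higher and 5 lower genes did not meet both the fold and the overlap condition. Among them were Tff3, with a distal minus proximal log2 difference of 0.87, Slc12a8, with -0.88, and Ang4, whose difference of -2.44 came with overlapping libraries.

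The pattern did not extend to all genes that mark a segment. The 1308 genes at least 2-fold higher in proximal WT crypts had a median log2 difference of 0.02 between T/T and WT, and the 720 higher in distal crypts had -0.02, against -0.01 for all genes tested. Among those with at least 4-fold between segments the medians were 0.08 in 564 proximal genes and -0.14 in 234 distal genes. Across 13763 genes Pearson's r of the T/T difference with the distal minus proximal difference was -0.0763 and Spearman's rho was 0.0353, and genes are not independent replicates. The posterior Hox genes varied widely between libraries of a group. Hoxa13 was at 312, 661, 10.6 and 362 in WT 1, WT 2, T/T 1 and T/T 2, and its groups overlapped. Hoxb13 was at 27.1, 249, 0 and 11.1, with both T/T libraries below WT (-4.59, SE 1.42, adjusted p = 0.309, and -2.80 to -6.39 without single libraries). The part of the site of sampling in the 32 calls was not tested.

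Genes of the enteroendocrine lists lay mostly above WT in T/T, although none of those listed passed the adjusted threshold. Insrr, called higher and described above, is known from enteroendocrine cells but is in none of these lists. Among 25 listed transcription factors of this lineage, 22 were tested and 0 were called with limma, while 14 had an unadjusted p under 0.05 and a higher level in T/T, beside 6.7% of all genes. Both T/T libraries exceeded both WT libraries in 19 of the 22 (86.4%), beside 22.6% of all genes tested. The median log2 difference was 0.74, beside -0.01 over all genes, and it lay between 0.70 and 0.85 in the 15 other settings, which included WT 1 and T/T 1 alone (0.85). The list holds Runx1t1, another gene of the MTG family, which was at 11.1 and 11.2 in WT and at 32.8 and 23.1 in T/T.

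**Figure D3:**
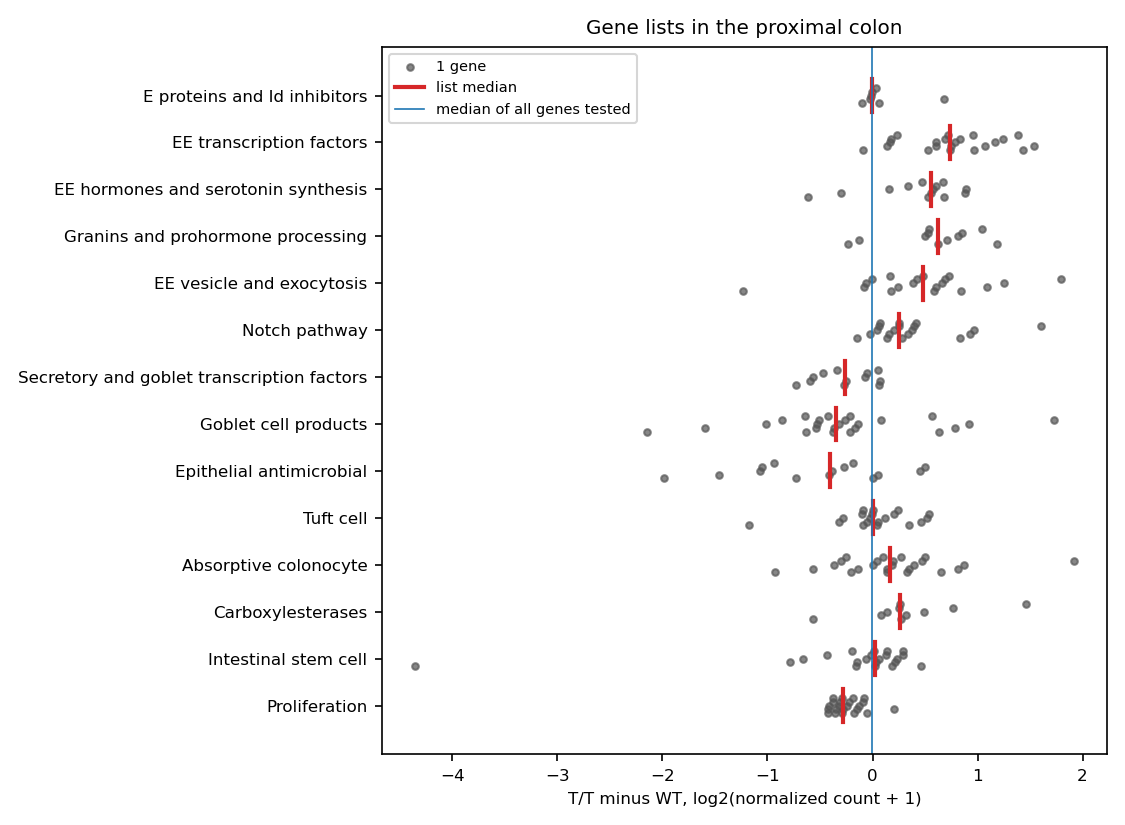
Log2 difference between T/T and WT of each tested gene of 14 lists, on the scale of log2(normalized count + 1), with the list median in red and the median of all genes tested in blue (EE, enteroendocrine). Median differences lay at 0.74 for enteroendocrine transcription factors, -0.34 for goblet cell products and 0.00 for tuft cell genes (0.18 without T/T 1).

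Neurog3, the factor that commits cells to the enteroendocrine fate and whose promoter is shown above, was at 41.2 and 45.5 in WT and at 106 and 134 in T/T. Its means were 43.4 ± 3.06 and 119.8 ± 19.8 (SD, n = 2 each), with a log2 difference of 1.44 (SE 0.27, adjusted p = 0.143). The groups did not overlap, and the gene did not pass the threshold. Insm1, a zinc finger factor acting after NEUROG3, was at 188 and 142 in WT and at 304 and 337 in T/T (0.96, SE 0.20, adjusted p = 0.175). Neurod1, a bHLH target of NEUROG3, was at 169 and 99.4 in WT and at 217 and 219 in T/T (0.75, SE 0.28, adjusted p = 0.384), and its difference was 0.37 without WT 2 and 1.13 without WT 1. Pax4 and Pax6, paired homeobox factors that set hormone identity, also lay above WT in both T/T libraries, but neither exceeded 50 counts in any library.

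Hormone genes included members on either side of WT. Of 17 listed hormone and serotonin synthesis genes 13 were tested, 0 were called, 7 had a higher and 1 a lower level in T/T at an unadjusted p under 0.05 (53.8% and 7.69%, beside 6.7% and 5.3% of all genes), and the median log2 difference was 0.55. Without single libraries this median ranged from 0.38 to 0.82. Gcg, which encodes glucagon-like peptides, was at 2506 and 2446 in WT and at 3955 and 3211 in T/T (0.53, SE 0.12, adjusted p = 0.197). Tph1, the first enzyme of serotonin synthesis, was at 1281 and 967 in WT and at 1959 and 1468 in T/T. Pyy, peptide YY, was at 798 and 578 in WT and at 1352 and 873 in T/T. In these 3 genes T/T 1 was the highest library. Tac1, the precursor of substance P, lay the other way, at 588 and 472 in WT and at 381 and 311 in T/T (-0.61, SE 0.18, adjusted p = 0.286).

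Genes for the storage and release of hormones had medians above 0. Among 11 tested granins and prohormone processing genes 0 were called, 6 were higher at an unadjusted p under 0.05 beside 6.7% of all genes, and 9 had both T/T libraries above WT (81.8%, beside 22.6%), with a median of 0.62. Chga, chromogranin A, was at 4386 and 3787 in WT and at 7393 and 5978 in T/T (0.71, SE 0.13, adjusted p = 0.134). Cpe, carboxypeptidase E, was at 426 and 434 in WT and at 668 and 659 in T/T. Pcsk1, the prohormone convertase, did not follow, at 1897 and 1557 in WT and 1717 and 1236 in T/T. Of 19 vesicle and exocytosis genes 0 were called and 6 were higher at an unadjusted p under 0.05, 10 (52.6%, beside 22.6% of all genes) had both T/T libraries above WT and 4 had a difference below 0, with a median of 0.48. Rimbp2, a scaffold of calcium channels at release sites, came nearest to the threshold, at 135 and 128 in WT and at 313 and 315 in T/T (1.25, SE 0.17, adjusted p = 0.0734). Syt13 was at 76.4 and 79.9 in WT and at 197 and 142 in T/T.

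Enteric nerves share such genes with enteroendocrine cells. Their 13 markers in the table summed to 200.03 and 238 in WT and to 355 and 437 in T/T, with 3, 3, 2 and 0 members at 0. Only 4 of them reached the count minimum, and the largest was Ret at 124 and 177 in WT and 219 and 247 in T/T. All 4 had both T/T libraries above both WT libraries (100%, beside 22.6% of all genes tested). At an unadjusted p under 0.05, 3 were higher (75%, beside 6.7%) and 0 lower, and the median log2 difference was 1.06. The neuronal gene Elavl4 and the glial gene S100b were below the count minimum, at 1.01, 0, 2.12 and 3.02 and at 0, 0.93, 0 and 2.01. The part of nerve in the enteroendocrine values was not tested further.

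The study's own enteroendocrine set, compiled from other data, holds 173 symbols, of which 161 were in the table and 138 were tested. None was called, 41 were higher and 5 lower at an unadjusted p under 0.05 (29.7% and 3.62%, beside 6.7% and 5.3% of all genes), and 107 had a difference above 0. Its median was 0.40, and it ranged from 0.25 to 0.42 over the other settings. In 70 genes (50.7%) the T/T libraries lay above WT and in 10 (7.25%) below, beside 22.6% and 22.9% of all genes.

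**Figure D4:**
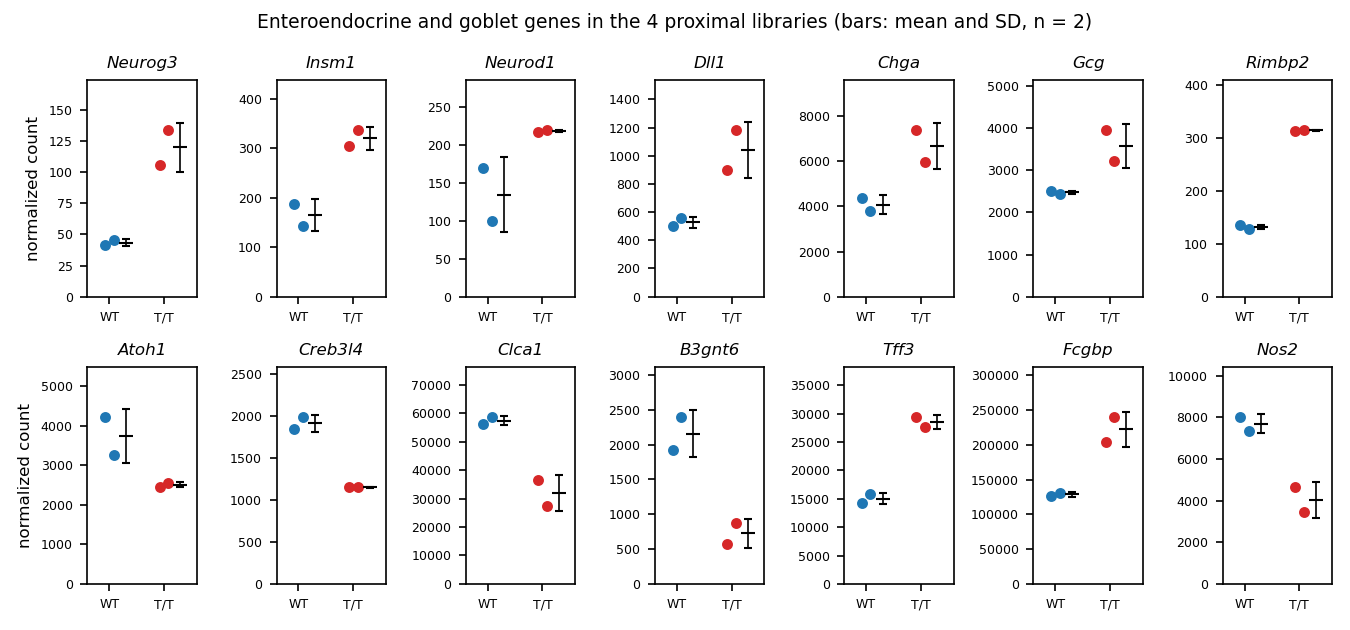
Normalized counts of 14 enteroendocrine, Notch, goblet and defence genes in each library (points), with the mean and SD of each group beside them (n = 2). Neurog3 was at 41.2 and 45.5 in WT and at 106 and 134 in T/T, while Clca1 was at 56312 and 58611 in WT and at 36481 and 27430.2 in T/T.

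Notch signalling, in which a cell that shows a DLL ligand keeps its neighbours from the secretory fate, had 19 tested genes and 0 calls. At an unadjusted p under 0.05, 7 members were higher and 0 lower (beside 6.7% and 5.3% of all genes), 14 of 19 (73.7%, beside 22.6%) had both T/T libraries above WT, and the median log2 difference was 0.25. Dll1, a ligand, was at 499 and 555 in WT and at 898 and 1183 in T/T (0.97, SE 0.16, adjusted p = 0.11). The receptor gene Notch1 was at 1604 and 1589 in WT and at 2025 and 2237 in T/T, and its target Hes1 at 1951 and 2125 in WT and 2445 and 2396 in T/T. Dll3 was near the count minimum, at 4.02 and 5.58 in WT and at 15.9 and 17.1 in T/T.

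Goblet cell genes lay mostly below WT, with exceptions among the most abundant. Of 24 goblet cell products tested, 2 were called, Tff3 and Ang4, both higher and both described above. At an unadjusted p under 0.05, 5 were higher and 13 lower (20.8% and 54.2%, beside 6.7% and 5.3% of all genes). The median log2 difference was -0.34. Clca1, a secreted protease of the mucus, was at 56312 and 58611 in WT and at 36481 and 27430.2 in T/T (-0.86, SE 0.14, adjusted p = 0.107). B3gnt6, which makes the core 3 sugar of mucins, was at 1924 and 2393 in WT and at 574 and 874 in T/T (-1.60, SE 0.21, adjusted p = 0.0697). Agr2, a disulfide isomerase needed for mucin folding, was at 58564 and 49852 in WT and at 41311 and 29414 in T/T. Fcgbp, an abundant mucus protein, lay above WT with Tff3, at 126213 and 131418 in WT and at 204837 and 239826 in T/T (0.78, SE 0.12, adjusted p = 0.0934).

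The factors that build secretory cells had 0 calls among 12 tested, with 5 lower and 0 higher at an unadjusted p under 0.05 (41.7% lower, beside 5.3% of all genes) and a median of -0.26. The median was -0.14 without WT 1, -0.17 without T/T 2 and -0.39 without WT 2. Creb3l4, an endoplasmic reticulum stress factor, was at 1840.5 and 1982 in WT and at 1147 and 1151 in T/T (-0.73, SE 0.10, adjusted p = 0.0648). Atoh1, which opens the secretory fate, was at 4211 and 3256 in WT and at 2459.9 and 2555 in T/T (-0.56, SE 0.13, adjusted p = 0.215). Xbp1, which expands the secretory apparatus, was at 10251 and 9893 in WT and at 8190.1 and 7734 in T/T. Spdef, the goblet maturation factor, was at 5629.9 and 4588 in WT and at 4567 and 3906 in T/T. The T/T libraries lay below WT in 7 of the 12 (58.3%), beside 22.9% of all genes tested.

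The goblet set of the study, again compiled from other data, covered 386 tested genes. Tff3 was called higher, and Atp2c2, B3gnt5 and Slc12a8 were called lower. At an unadjusted p under 0.05, 162 genes (42%) were lower and 13 (3.37%) higher, beside 5.3% and 6.7% of all genes, and in 248 (64.2%, beside 22.9%) both T/T libraries lay below both WT libraries. The median was -0.21, and it ranged from -0.24 to -0.18 over the other settings, with -0.22 in WT 1 and T/T 1 alone. Just past the threshold stood Ttc39a, at 5164 and 5408 in WT and at 3308 and 3423 in T/T (adjusted p = 0.0598), and B3gnt7, which extends keratan sulfate chains, at 1519.8 and 1717 in WT and at 639 and 412 in T/T (adjusted p = 0.0628). Rasa4 lay the other way, at 1603 and 1629 in WT and at 2731 and 3264 in T/T (adjusted p = 0.0603).

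Epithelial antimicrobial genes had 0 calls among 14 tested, with 8 lower and 1 higher at an unadjusted p under 0.05 (57.1% and 7.14%, beside 5.3% and 6.7% of all genes) and a median of -0.40. Nos2, inducible nitric oxide synthase, was at 8000.1 and 7358 in WT and at 4649 and 3428 in T/T (-0.94, SE 0.15, adjusted p = 0.0993). Pla2g2a, a secreted phospholipase, was at 698 and 649.6 in WT and at 119.6 and 239 in T/T (-1.99, SE 0.31, adjusted p = 0.0993). Reg3g, a lectin that kills Gram-positive bacteria, was at 140251 in WT 1, 75675 in WT 2, 49430.3 in T/T 1 and 48684 in T/T 2 (-1.07, SE 0.26, adjusted p = 0.226). Its difference was -0.63 without WT 1 and -1.52 without WT 2, where it passed the test (limma, adjusted p = 0.0374). WT 1 was the highest library for Reg3g, and the list summed to 1403170, 986903, 907228 and 805062 counts in WT 1, WT 2, T/T 1 and T/T 2. Summed markers of myeloid cells lay in the same order, at 3968, 3828, 3102 and 2871, and those of T cells at 8625, 6312, 5885 and 5842, with no member in the table at 0. Their part in these values was not tested.

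Absorptive colonocyte genes were mixed, with Slc37a2 higher and Aqp4 lower among 24 tested, 9 higher and 4 lower at an unadjusted p under 0.05 (37.5% and 16.7%, beside 6.7% and 5.3% of all genes), and a median of 0.17, which was 0.078 without T/T 2. Slc26a3, the chloride-bicarbonate exchanger, was at 17934 and 18629.6 in WT and at 28419 and 36326 in T/T (0.81, SE 0.13, adjusted p = 0.0958). The water channel Aqp8 was at 12627 and 13115 in WT and at 16770.5 and 19617 in T/T, opposite in sign to Aqp4. The study's absorptive set had a median of 0.06 over 437 tested genes, 0.00089 without T/T 2, with St3gal4 and Stom called lower. Among 10 tested carboxylesterases, enzymes that split lipid and drug esters, Ces1d was called, at 976 and 1102 in WT and at 2442 and 3343 in T/T (1.46, SE 0.16, adjusted p = 0.0436). It lies in a cluster of paralogs, and its neighbour Ces1g was at 4436 and 4051 in WT and at 8722 and 5945 in T/T.

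The shorter tuft cell list and the stem cell and cell cycle lists gave no call by limma. None of 19 tuft genes had an unadjusted p under 0.05 (median 0.00, and 0.18 without T/T 1), with the kinase gene Dclk1 at 426 and 464 in WT and at 517 and 622 in T/T. In the study's tuft set of 445 tested genes 36 were higher and 36 lower at that level (8.09% each, beside 6.7% and 5.3% of all genes), and Gna14 was called lower. Among 21 stem cell genes 0 were higher and 2 lower at that level. One of those, Olfm4, rested on WT 2, with 13.1, 369, 1.06 and 5.03 in the 4 libraries. Lgr5, the marker of crypt base stem cells, was at 262 and 222 in WT and at 394 and 283 in T/T (0.46, SE 0.21, adjusted p = 0.45), and its difference was 0.23 without T/T 1. All 22 proliferation genes missed an unadjusted p of 0.05, and 21 had a difference below 0 (median -0.28). This median was -0.60 without T/T 1 and 0.03 without T/T 2. T/T 2 had the lowest summed level of the list, at 49274 counts beside 66794 to 71558 in the other 3. The Wnt feedback genes had 1 higher and 1 lower of 12 at that level (median -0.24), and their median was 0.17 in WT 1 and T/T 1 alone.

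Other lists moved with single libraries. The circadian list had a median of 0.41, which was 0.11 without WT 1, 0.80 without T/T 1 and -0.07 without T/T 2. Per2 was at 171, 347, 206 and 2106 in WT 1, WT 2, T/T 1 and T/T 2, and Dbp at 185, 1146, 251 and 1989. Interferon-stimulated and MHC class II genes had a median of -0.12 with 0 of 18 past an unadjusted p of 0.05. This median was -0.46 without T/T 1, 0.14 without T/T 2 and 0.20 in WT 1 and T/T 1 alone. Immediate early and heat shock genes had a median of 0.09, and 0.03 without T/T 1, with Nr4a1 at 213 and 234 in WT and at 103 and 101 in T/T (-1.13, SE 0.19, adjusted p = 0.114). Genes of position along the gut had a median of 0.03, which was -0.07 without WT 1, -0.02 without T/T 2 and 0.18 without T/T 1.

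The effects in the 32 genes were last set beside 2 other comparisons, in which other mice served as controls. In proximal crypts of mice lacking MTG16 (Mtg16-/-, 2 against 2 WT littermates), 13944 genes were tested and 9 (0.0645%) were called, 5 higher (0.0359%) and 4 lower (0.0287%), while 831 (5.96%) had an unadjusted p under 0.05. Of the 19 genes higher in T/T, 7 had the same and 12 the opposite direction there, and of the 13 lower genes, 7 had the same and 6 the opposite direction. At an unadjusted p under 0.05, the higher genes numbered 3 in the same and 6 in the opposite direction, and the lower genes 7 and 2. Tff3 and Dmpk were called in both, with log2 differences of 0.92 and 1.79 in T/T and 1.65 and 2.61 in Mtg16-/-. In distal crypts of the P209T colony (4 T/T against 3 WT), 13535 genes were tested and 5 (0.0369%) were called, all higher, while 629 (4.65%) had an unadjusted p under 0.05. Of the 15 higher genes tested there, 12 had the same direction, and all 13 lower genes did, with a median of -0.60 for the latter. At an unadjusted p under 0.05 these were 4 higher and 3 lower genes. Insrr and Dmpk were called there too, with differences of 3.17 and 1.24.

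**Figure D5:**
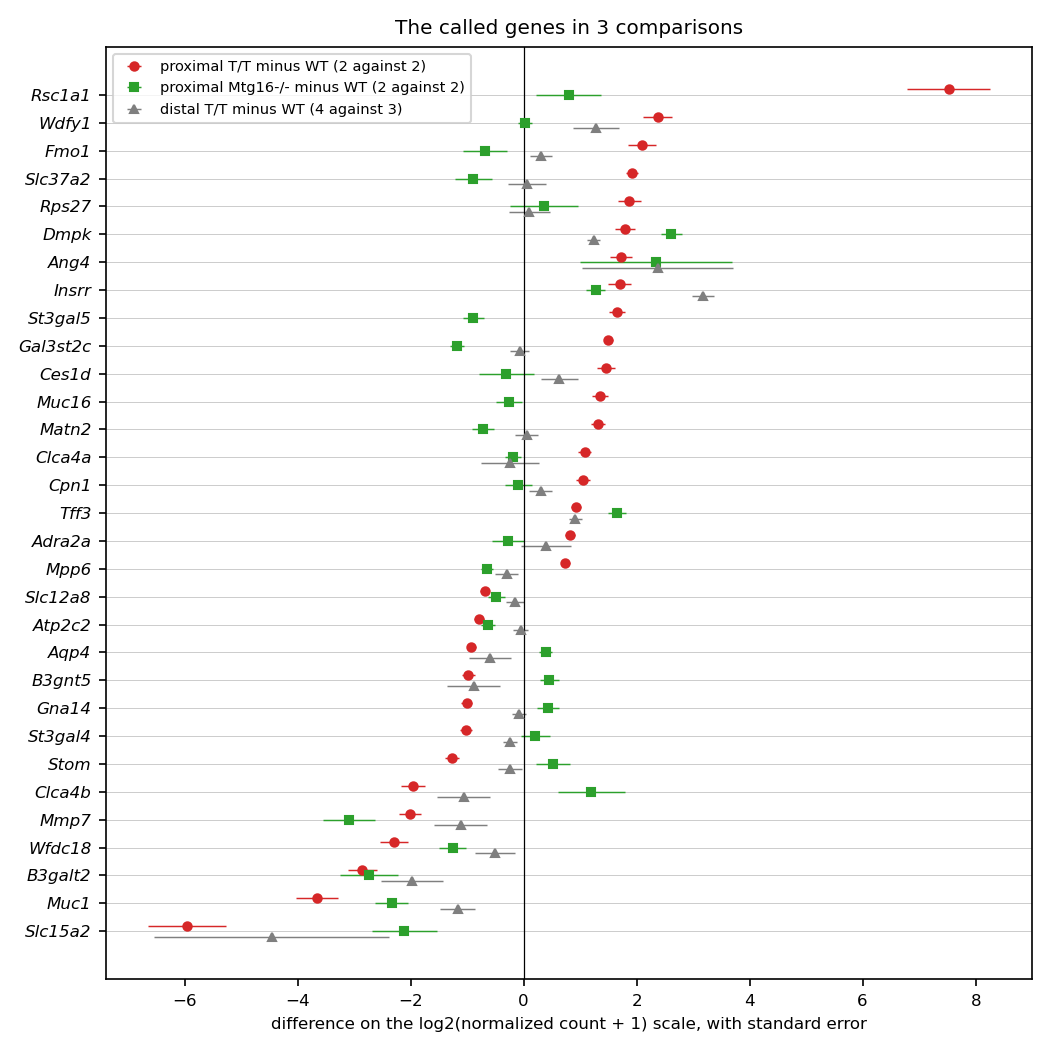
Difference on the log2(normalized count + 1) scale, with its standard error, of 31 of the 32 called genes in proximal T/T (red), proximal Mtg16-/- (green) and distal T/T crypts (grey), each against its own WT littermates. Gal3st2c lay at 1.5 in proximal T/T and at -1.18 in Mtg16-/-, whereas B3galt2 lay at -2.85, -2.73 and -1.98.

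The difference between the T/T and the Mtg16-/- effect was itself tested in 1 limma fit over both proximal tables. It passed the threshold for 7 of 13622 genes (0.0514%), 6 of them above 0 (0.044%) and 1 below (0.00734%), and 858 (6.3%) had an unadjusted p under 0.05. Gal3st2c had the smallest adjusted p, at 5625 and 5462 in WT and 2253 and 2670 in Mtg16-/- crypts of that table, opposite to its direction in T/T (difference of effects 2.67, SE 0.14, adjusted p = 0.000641). Reg4, a secretory lectin, was at 11354 and 9428 in WT and at 18897 and 13698 in T/T of the P209T colony but at 18856 and 16340 in WT and at 5534 and 6046 in Mtg16-/- (2.24, SE 0.23, adjusted p = 0.0214). St3gal5, Matn2 and Mpp6 differed by 2.54, 2.04 and 1.38, and Aqp4 by -1.31. Without single libraries the count ranged from 1 to 10. It was 1 without WT 2 of the P209T colony, 4 without its WT 1, 2 without its T/T 2 and 2 without Mtg16-/- 1. All 4 libraries of the Mtg16-/- comparison had Xist at 15890.0 counts or more and Kdm5d at 2.99 or less, whereas those of the T/T comparison had Y-linked genes, so sex, colony, request number and allele cannot be told apart in this difference.

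The difference between the proximal and the distal T/T effect passed the threshold for 0 of 13113 genes with limma, and 435 (3.32%) had an unadjusted p under 0.05. The proximal mice were all male by expression, whereas 1 of the 3 distal WT and 2 of the 4 distal T/T mice were female. Distal T/T 1, counted as female because its Y-linked genes were at 3.39 counts or less, had Xist at 1954 counts only. The other female libraries, distal WT 1 and distal T/T 3, had it at 26370 and 27630. The 2 segments also had different request numbers, so segment cannot be told apart from sex and request number in this difference. Without proximal WT 1 there were 3 genes past the threshold and without proximal T/T 2 there were 8. Insrr differed by 1.70 proximally and 3.17 distally, with means of 257 ± 25.1 and 845 ± 204 in proximal WT and T/T (n = 2 each) and of 38.6 ± 5.60 and 359 ± 68.0 in distal WT and T/T (n = 3 and 4), on separately scaled tables. Neurog3 differed by 1.44 and 1.01, and Slc15a2 by -5.95 and -4.46. The medians of the lists stood at 0.28 distally for enteroendocrine transcription factors, beside 0.74, and at 0.02 for goblet cell products, beside -0.34. In Mtg16-/- proximal crypts those lists had medians of 0.58 and -0.23.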

How the data were processed

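RNA of colon crypts was sequenced in 4 proximal libraries of the P209T colony, 2 per genotype. The authors trimmed reads with fastp 0.20.0, assigned them to GENCODE vM21 transcripts (GRCm38) with Salmon 1.3.0, took gene sums in tximeta and scaled libraries with DESeq2 1.26.0 in R 3.6.3. The signal values that the authors deposited are normalized counts, made from estimated counts by rounding and by a size factor that each library has in each table. Reads recovered from those factors came to 44979129 in WT 1, 47082317 in WT 2 and 41755780 in T/T 1. Recovered reads were not used for T/T 2, nor for WT 1 within the table compared, since their factors lie too close to 1 to tell whole reads. Counting error is small at this depth and the spread between mice limits precision. Columns of the authors' own tests (mean, fold change, its error, p before and after adjustment) were not used.

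Groups followed the labels. Genes with a mean of at least 10 were compared after log2(normalized count + 1) by limma's trend method (version 3.58.1, R 4.3.3), p-values were adjusted by Benjamini-Hochberg over all genes tested, and the threshold was 0.05. A count test with edgeR was planned, but the values are not counts, so edgeR 4.0.16 served only for TMM factors. Fold changes on this scale understate those of low genes. Differences between 2 effects were interaction contrasts of a joint limma fit. The fits were tested on simulated data. The members, the gene lists and the comparisons were chosen with earlier results of these data known. Genes named are Cbfa2t3, up to 15 called genes per direction by size (mean of at least 50, no overlap), list members, and up to 5 genes per direction of each difference. Adra2a and Cpn1 fall outside this rule and were named after their values were seen. The results of some genes are not reported here. Lists are described by counts and medians, with no test. Replicate numbers were not treated as pairs, since 2 pairs with a correlation of 0.147 do not settle it. The alternatives were other pseudocounts, filters, scalings and covariates, a replicate block, leaving out each library and, added after the data were seen, WT 1 against T/T 1 alone. Promoter sequences are from RefSeq (GRCm38.p6).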

Additional observations from a re-analysis of the deposited data

Results flagged for a closer look

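Effects of opposite sign in proximal T/T and proximal Mtg16-/- crypts drew attention to 5 genes, because a test of the difference between the 2 effects (limma interaction, adjusted over 13622 genes) passed the threshold. The T/T effect minus the Mtg16-/- effect was 2.67 for Gal3st2c, 2.54 for St3gal5, 2.24 for Reg4 and 2.04 for Matn2 on the log2 scale, and -1.31 for Aqp4. In each gene both T/T libraries lay on the other side of their WT littermates from both Mtg16-/- libraries. The mice of the T/T comparison were male and those of the Mtg16-/- comparison female by Xist and Y-linked genes, so allele, sex, colony and request number cannot be told apart.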

How the results depend on the processing

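The count of 32 called genes was 2 without a filter on low genes, 151 with the replicate block and 535 with the Xist level as a covariate, and 0 with limma run without its trend (1404 genes at an unadjusted p under 0.05). The 2 pairs share a number only, every one of the 32 was called with the block, and Xist spans 0 to 8.05 counts in these libraries. Without single libraries the count ranged from 0 to 27, the lowest without WT 1. Under the other pseudocounts, a mean of at least 50, TMM or upper quartile scaling, ileal and Paneth genes left out and a fold of at least 1.5, it lay between 26 and 32. The difference between the T/T and Mtg16-/- effects gave 26 genes with the replicate block, 228 with separate fits and a normal approximation, and 1 to 10 without single libraries. The difference between proximal and distal T/T effects gave 1 gene with the replicate block, 85 with separate fits and 0 to 8 without single libraries. Cbfa2t3 lay between 0.31 and 0.55 without single libraries, and passed the threshold at 0.44 with the Xist covariate (adjusted p = 0.0317). For 8 genes, the difference crossed 0 when a library was left out. Their ranges were -0.10 to 0.064 for Tcf3, -0.23 to 0.024 for Tcf4, -0.19 to 0.18 for Id1, -0.091 to 0.20 for Id2, -0.25 to 0.22 for Id3, -0.56 to 0.21 for Mki67, -0.37 to 0.18 for Pou2f3 and -0.0046 to 0.082 for Cbfa2t2. Of the values of single genes and the counts called higher or lower under the alternatives, 1805 kept their direction and side of the threshold or their size, 176 lost significance, 66 gained it and 12 reversed, and 14 of the counts moved by over 1.5 times. Of the values of genes whose effect differed between comparisons, 53 kept and 31 lost significance. Of the list medians, 318 moved by less and 42 by more than the SD of the list mean between libraries of a group. The causes were not tested. With 2 libraries a group, a left-out library leaves 1 that is assumed to vary like the others.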

Other observations

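T/T 2 held transcripts known from kidney at levels above those of the other 3 libraries. Kap, an androgen-regulated protein of kidney tubules, was at 1.01 in WT 1, 0 in WT 2, 0 in T/T 1 and 174 in T/T 2, and Umod, uromodulin of the loop of Henle, was at 1.01, 0, 0 and 85.5. Gpx3, a secreted glutathione peroxidase, was at 26.1, 19.5, 25.4 and 417, and Slc34a1, a phosphate transporter of kidney tubules, was at 46.2, 62.3, 26.5 and 121.7. These genes were chosen after their values were seen. Their origin was not tested.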
